A study of Mus musculus with 4 samples.

Results

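The transcripts of 8 genes were followed in 4 single-cell RNA libraries of mouse mammary tumors. They were the receptors for estrogen (Esr1), progesterone (Pgr) and prolactin (Prlr), the transcription factors Foxa1, Gata3 and Tbx3, and the receptor partner Cited1 and receptor target Greb1. The genes were chosen by symbol, as steroid receptors and regulators of the hormone-sensing luminal lineage, from the 32285 genes listed in the count tables, and each of the 8 symbols matched 1 Ensembl gene. Their identifiers are ENSMUSG00000019768 for Esr1, ENSMUSG00000031870 for Pgr, ENSMUSG00000005268 for Prlr, ENSMUSG00000035451 for Foxa1, ENSMUSG00000015619 for Gata3, ENSMUSG00000051159 for Cited1, ENSMUSG00000018604 for Tbx3 and ENSMUSG00000036523 for Greb1.

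The study compared tumors of MMTV-Cre-; Frmd8fl/fl; PyMT mice (Cre-, replicates 1 and 3) with those of MMTV-Cre+; Frmd8fl/fl; PyMT mice (Cre+, replicates 2 and 4), taken at 17 to 18 weeks. Each library was taken as 1 mouse, which the sample titles do not state. All 4 mice carried loxP-flanked Frmd8 alleles and the polyoma middle T oncogene, so the named genotypes differ by the Cre transgene. The MMTV promoter drives it mainly in mammary epithelium, and its activity in fibroblasts and immune cells was not tested. The paper also told littermates apart by coat color, yellow for Cre+ and black for Cre-. The assay counts unique molecular identifiers (UMIs), each a tag for 1 captured RNA molecule, per gene and cell barcode. The libraries held 112729231 to 157662955 UMIs. Barcodes with at least 1000 UMIs and at most 20% mitochondrial UMIs were kept with no upper limit on depth, which left 4922, 5918, 5609 and 7123 barcodes. These counts, like every series of 4 values below for which no library is named, give Cre- replicate 1 first, then Cre- replicate 3, and Cre+ replicate 2 before Cre+ replicate 4.

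Estrogen and progesterone act on the mammary gland through nuclear receptors that are made by a subset of luminal cells, the hormone-sensing cells, and these cells pass the signal to their receptor-negative neighbors through secreted factors such as amphiregulin, Wnt4 and RANKL. FOXA1 opens chromatin for the estrogen receptor, GATA3 sets the luminal fate, and the progesterone receptor and GREB1 are classical products of estrogen receptor activity. Prolactin signals through its own cell-surface receptor and JAK2 to STAT5 and drives the alveolar, milk-producing program.

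The 5' ends of the genes are shown first, since several of the 8 transcripts were found in the same cells. RefSeq windows of 300 bases, 250 before and 50 after a transcription start, were at hand for 7 of the 8 genes (13 windows, GRCm38.p6). Tbx3 had no window in the table used. Each window was searched on both strands for the estrogen receptor palindrome (GGTCA, any 3 bases, TGACC), the receptor half-site AGGTCA, the forkhead motif TGTTTAC and the GATA motif AGATAA. The palindrome holds AGGTCA, on either strand, only where the base next to it completes the half-site, so the searches overlap in part. The half-site stood in a window of Cited1 and of Greb1, against 16.3% of all 32851 windows, and the forkhead motif in a window of Foxa1 and of Prlr, against 3.65%. The palindrome, held by 0.0700% of all windows, and the GATA motif, held by 11.2%, were in 0 of the 13. The windows with a match are printed 5′ to 3′ on the strand of the gene, with the matched letters in capitals. The match begins 217 bases before the start in Cited1 (chrX:102250727-102251026, minus strand), 88 in Greb1 (chr12:16800837-16801136, minus strand), 141 in Foxa1 (chr12:57546062-57546361, minus strand) and 215 in Prlr (chr15:10223656-10223955, plus strand). A match of letters is a description of these windows and not a binding site.
Cited1: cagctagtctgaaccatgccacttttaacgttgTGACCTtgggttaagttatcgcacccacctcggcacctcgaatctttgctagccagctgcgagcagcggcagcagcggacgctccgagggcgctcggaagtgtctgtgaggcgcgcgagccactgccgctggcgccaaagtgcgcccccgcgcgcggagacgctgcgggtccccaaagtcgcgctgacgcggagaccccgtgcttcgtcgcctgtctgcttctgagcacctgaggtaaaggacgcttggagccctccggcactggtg
Greb1: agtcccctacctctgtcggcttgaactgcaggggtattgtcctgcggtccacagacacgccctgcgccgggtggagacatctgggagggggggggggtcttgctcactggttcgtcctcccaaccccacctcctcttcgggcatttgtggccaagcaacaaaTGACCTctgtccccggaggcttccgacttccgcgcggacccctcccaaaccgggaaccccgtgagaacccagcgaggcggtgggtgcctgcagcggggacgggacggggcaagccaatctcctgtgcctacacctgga
Foxa1: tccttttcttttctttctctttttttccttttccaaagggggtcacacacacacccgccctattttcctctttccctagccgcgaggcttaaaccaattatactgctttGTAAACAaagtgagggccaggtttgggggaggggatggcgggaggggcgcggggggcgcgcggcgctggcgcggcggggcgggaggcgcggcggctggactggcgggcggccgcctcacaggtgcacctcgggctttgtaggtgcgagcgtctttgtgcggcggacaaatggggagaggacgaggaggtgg
Prlr: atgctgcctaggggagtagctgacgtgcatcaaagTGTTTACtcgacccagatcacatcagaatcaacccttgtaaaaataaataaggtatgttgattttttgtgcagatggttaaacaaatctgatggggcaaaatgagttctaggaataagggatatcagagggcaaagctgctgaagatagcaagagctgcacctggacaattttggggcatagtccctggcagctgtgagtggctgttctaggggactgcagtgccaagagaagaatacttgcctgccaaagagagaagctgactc

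Cells were assigned to a class by marker UMIs. A barcode entered a class when it held at least 3 UMIs of at least 2 markers of that class and that class took at least 75% of its marker UMIs over 5 classes. None of the 8 genes was among the markers. Epithelial cells (markers such as Epcam, Krt8 and Krt18) numbered 2380, 2094, 2423 and 3108, with medians of 23052.5, 22569.5, 13675 and 12224.5 UMIs per cell. Fibroblasts (Col1a1, Dcn, Pdgfra) numbered 271, 486, 570 and 150, and immune cells (Ptprc, Laptm5, Tyrobp) 1731, 2120, 2091 and 3144. The summed level of the 11 epithelial markers was 10924, 5970, 7216 and 8531 UMIs per 1000000 UMIs (CPM) in epithelial cells, 303, 212, 177 and 203 CPM in fibroblasts and 154, 103, 119 and 129 CPM in immune cells. Thus every class carried epithelial RNA at a low level, and its part in the levels given for fibroblasts and immune cells was not tested. Between 6 and 16 barcodes were shared by each pair of libraries. Doublets were not called, so a barcode may hold RNA of more than 1 cell.

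Frmd8, the targeted gene, was counted at 24.3 and 24.4 CPM in Cre- epithelial cells and at 5.59 and 10.5 CPM in Cre+ epithelial cells (log2 fold change -1.51, SE 0.42, edgeR adjusted p = 1.00). In fibroblasts the levels were 17.6 and 19.2 CPM in Cre- and 14.0 and 16.7 CPM in Cre+, and in immune cells 29.8 and 26.9 against 20.9 and 16.1 CPM. In each of the 3 classes both Cre+ values lay below both Cre- values, and the difference did not pass the test in epithelial cells. How many of all genes separate the genotypes in this way was not counted. The 3' tag can lie outside the deleted exons, so it checks the labels only in part.

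The 3 receptors had different homes in the tumor. Esr1, which encodes estrogen receptor alpha, was highest in fibroblasts. Its level there was 33.6, 30.2, 47.3 and 39.5 CPM, and its level in epithelial cells was 12.9, 1.59, 6.64 and 0.337 CPM. Immune cells held 4.55, 3.33, 4.18 and 1.22 CPM. The lowest fibroblast value exceeded the highest epithelial value, whereas epithelial and immune values overlapped. The ratio of fibroblast to epithelial Esr1 was 2.61 in Cre- replicate 1 and 117 in Cre+ replicate 4. Averaged over the libraries, fibroblasts held 37.7 ± 7.49 CPM (SD, n = 4) and epithelial cells 5.37 ± 5.72 CPM, so that the level varied little among fibroblasts and by more than its mean among epithelial cells. In a fit of summed counts over all genes with the library as a block (edgeR quasi-likelihood test, Benjamini-Hochberg adjustment over all genes tested, threshold 0.05), Esr1 was lower in epithelial cells than in fibroblasts by a log2 fold change of -3.65 (SE 0.73, adjusted p = 0.00201). Between epithelial and immune cells it differed by -0.06 (SE 0.67, adjusted p = 0.944).

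Within fibroblasts, Esr1 was also uneven. Fibroblasts with a UMI of Pi16 or Dpp4, markers of adventitial fibroblasts, held 50.3, 33.5, 48.0 and 45.0 CPM of Esr1, and those without held 8.48, 12.9, 37.5 and 22.1 CPM. The level was higher with Pi16 or Dpp4 in 4 of 4 libraries, and the difference ranged from slight in Cre+ replicate 2 to several-fold in Cre- replicate 1. Cells with these transcripts numbered 168, 321, 488 and 108. The split needs a detected UMI, so it also tends to separate deeper from shallower cells. The split gave other patterns for the other genes. Gata3 was higher without Pi16 and Dpp4 in the first 3 libraries (42.0, 33.7 and 69.6 CPM against 10.7, 7.19 and 9.01 CPM), and Tbx3 was equal in Cre+ replicate 2 (13.7 CPM in both) and higher without them in the other 3.

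Pgr, the progesterone receptor, was an epithelial transcript in 2 libraries. Its level in epithelial cells was 35.2, 1.21, 9.40 and 0.239 CPM, against 5.88, 1.62, 2.06 and 0.927 CPM in fibroblasts and 0.680, 0.0312, 0.298 and 0 CPM in immune cells. Fibroblast values lay below the epithelial ones in Cre- replicate 1 and Cre+ replicate 2. In Cre- replicate 3 and Cre+ replicate 4 they were nominally above, with Pgr in 12 of 486 and 3 of 150 fibroblasts. The Cre+ replicate 4 value equals 3 UMIs. It lies within the interval of that library's barcodes with at most 100 UMIs (0.0486 to 1.45 CPM). No order is read in Cre- replicate 3 and Cre+ replicate 4. Between epithelial cells and fibroblasts Pgr did not pass the test (log2 fold change 1.13, SE 0.63, adjusted p = 0.143, edgeR), and passed it without Cre- replicate 3 (1.83, adjusted p = 0.0442) or without Cre+ replicate 4 (1.50, adjusted p = 0.0417). Against immune cells, it was higher in epithelial cells (4.87, SE 0.70, adjusted p = 0.000201) and in fibroblasts (3.74, SE 0.76, adjusted p = 0.00196). The second call was lost without the library block (adjusted p = 0.0577).

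Prlr, the prolactin receptor, was carried mostly by epithelial cells in all 4 libraries, at 461, 74.97, 202 and 39.4 CPM. Fibroblasts held 19.2, 3.06, 5.33 and 8.03 CPM and immune cells 4.81, 0.904, 3.99 and 0.329 CPM. The order of the classes was the same in each library, and the lowest epithelial value lay above the highest fibroblast value. Prlr was higher in epithelial cells than in fibroblasts by 4.18 (SE 0.50, adjusted p = 8.37e-05, edgeR) and than in immune cells by 5.97 (SE 0.51, adjusted p = 5.88e-06). Fibroblasts exceeded immune cells by 1.79 (SE 0.50, adjusted p = 0.0109), a call lost without the library block (adjusted p = 0.120) and without Cre- replicate 1 (adjusted p = 0.0565).

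**Figure D1:**
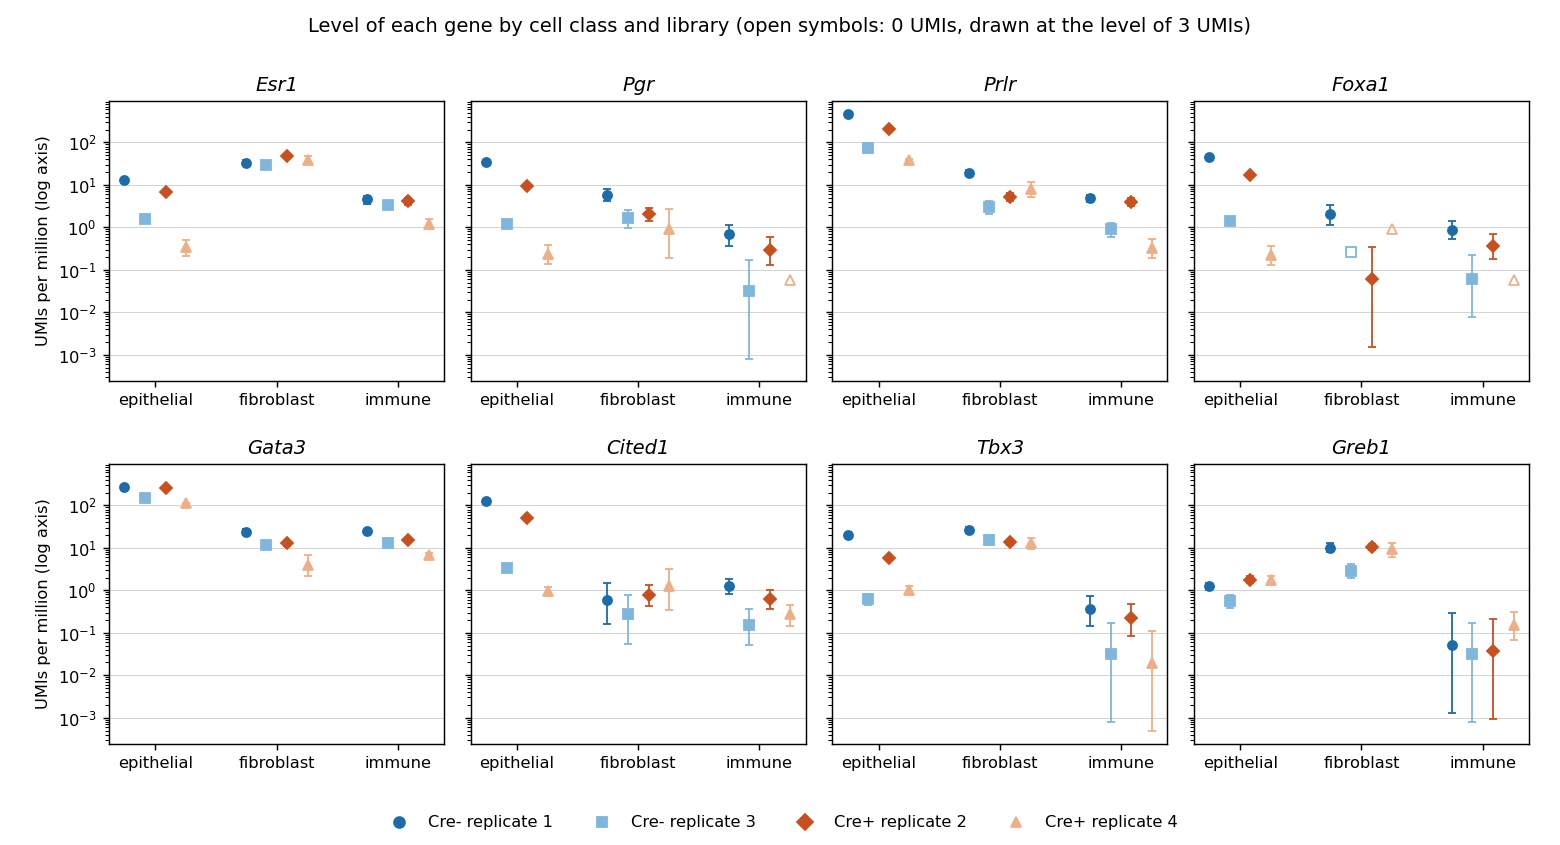
Level of each gene in UMIs per 1000000 (log axis) in epithelial cells, fibroblasts and immune cells, 1 symbol per library, with 95% exact Poisson intervals of counting error (open symbols hold 0 UMIs and are drawn at the level of 3 UMIs). Esr1 lies between 30.2 and 47.3 CPM in fibroblasts and between 0.337 and 12.9 CPM in epithelial cells, whereas Prlr and Gata3 are highest in epithelial cells in all 4 libraries.

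The pioneer and lineage factors fell into 2 patterns. Foxa1 was largely an epithelial transcript, at 46.1, 1.39, 16.9 and 0.225 CPM. Fibroblasts held 2.06, 0, 0.0605 and 0 CPM and immune cells 0.889, 0.0623, 0.373 and 0 CPM. The fibroblast counts of 0 allow up to 0.270 CPM (Cre- replicate 3) and up to 0.927 CPM (Cre+ replicate 4), so in the latter a level as high as the epithelial one could not have been seen. It was higher in epithelial cells than in fibroblasts (5.29, SE 0.57, adjusted p = 4.5e-05, edgeR) and immune cells (5.24, SE 0.52, adjusted p = 1.55e-05). Gata3 was steadier, at 268, 147, 264 and 112 CPM in epithelial cells or 198 ± 80.1 CPM (SD, n = 4), while the SD of Foxa1 (21.4) exceeded its mean (16.2). Fibroblasts held 23.2, 11.4, 13.0 and 4.01 CPM of Gata3 and immune cells 24.4, 13.1, 15.5 and 6.85 CPM. It was higher in epithelial cells than in fibroblasts by 3.89 (SE 0.20, adjusted p = 4.12e-07) and than in immune cells by 3.50 (SE 0.19, adjusted p = 2.73e-07).

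GATA3 is also the factor that directs T helper 2 and innate lymphoid cells, and the immune Gata3 was uneven in the same sense. Immune cells with at least 2 T cell markers (Cd3d, Cd3e, Cd3g, Cd2, Trbc2) held 181, 105, 127 and 51.3 CPM, with a UMI in 41.5%, 33.1%, 49.7% and 35.6% of 241, 251, 181 and 208 cells. Those with at least 2 myeloid markers held 3.10, 3.11, 4.95 and 2.34 CPM. The T cell level came to within the epithelial range in 2 libraries and lay below the epithelial level of the same library in all 4.

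Tbx3, a T-box repressor needed for mammary bud formation, was instead higher in the stroma. Its level in fibroblasts was 26.6, 15.2, 13.7 and 13.0 CPM, and in epithelial cells 19.99, 0.613, 5.89 and 1.03 CPM. Immune cells held 0.366, 0.0312, 0.224 and 0.0193 CPM. Fibroblasts were above epithelial cells within each library, most narrowly in Cre- replicate 1. Tbx3 was lower in epithelial cells than in fibroblasts by -2.52 (SE 0.65, adjusted p = 0.00783, edgeR), a call lost without the library block (-1.46, adjusted p = 0.175). It was higher than in immune cells both in epithelial cells (4.76, SE 0.82, adjusted p = 0.000684) and in fibroblasts (7.28, SE 0.86, adjusted p = 5.89e-05). Mural cells, which wrap small vessels, held 48.9, 60.8 and 50.2 CPM of Tbx3 in 37, 26 and 21 cells of the first 3 libraries and 0 in the 6 cells of Cre+ replicate 4, which allows up to 153 CPM.

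Cited1, a coactivator that binds the estrogen receptor and SMAD4, followed Foxa1. Its level in epithelial cells was 125, 3.30, 49.3 and 0.970 CPM, against 0.588, 0.270, 0.787 and 1.24 CPM in fibroblasts and 1.26, 0.156, 0.634 and 0.271 CPM in immune cells. Epithelial cells exceeded fibroblasts in 3 libraries, and in Cre+ replicate 4 both classes were near 1 CPM. Cited1 was higher in epithelial cells than in fibroblasts (5.32, SE 1.05, adjusted p = 0.00182, edgeR) and immune cells (4.97, SE 0.90, adjusted p = 0.000892). Greb1, an early estrogen-induced gene, did not follow it. Greb1 was at 1.25, 0.555, 1.78 and 1.79 CPM in epithelial cells and at 10.1, 2.88, 10.4 and 9.27 CPM in fibroblasts, and at most 0.155 CPM in immune cells. The lowest fibroblast value exceeded the highest epithelial one. Greb1 was lower in epithelial cells than in fibroblasts by -2.72 (SE 0.29, adjusted p = 3.9e-05) and higher than in immune cells by 3.79 (SE 0.38, adjusted p = 1.74e-05). In fibroblasts it exceeded immune cells by 6.51 (SE 0.39, adjusted p = 6.76e-07).

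Thus 4 of the 8 genes (Prlr, Foxa1, Gata3 and Cited1) were higher in epithelial cells than in fibroblasts, against 31.2% of all genes tested, and 3 (Esr1, Tbx3 and Greb1) were lower, against 30.4%. Against immune cells, 7 were higher in epithelial cells (background 35.2%) and 0 lower (29.8%), with Esr1 the gene not called. Fibroblasts exceeded immune cells in 5 genes (33.0%), Esr1, Pgr, Prlr, Tbx3 and Greb1, and fell below them in 0 (32.5%). The class markers chose the cells and the 8 genes did not, but the backgrounds show that most genes differ between these classes.

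The other genes of the pathways were counted from lists of known members. Over all genes tested, 31.2% were higher in epithelial cells than in fibroblasts and 30.4% lower. The counts of the prolactin and coregulator lists below are not above these shares. Of the 6 other receptors of the steroid family, 4 were higher in epithelial cells than in fibroblasts and 2 lower, with a median log2 fold change of 0.95 against 0.07 over all genes (edgeR). Esr2, estrogen receptor beta, was among the higher (6.96) and the glucocorticoid receptor Nr3c1 (-1.13) among the lower. Of 11 tested genes that hormone-sensing cells use to signal or that estrogen or progesterone induce, 6 were higher and 2 lower (median 1.47). The higher ones included Areg, the gene of amphiregulin (5.54), and Wnt4 (2.93), and the lower ones were Wnt5a (-1.29) and Tnfsf11, the gene of RANKL (-4.22). Of 7 genes downstream of the prolactin receptor, the alveolar factor Elf5 (4.90) and Stat5a (0.99) were higher and the kinase Jak2 (-1.10) and the feedback inhibitor Socs3 (-2.14) lower. Of 8 receptor coregulators, 2 were higher and 1 lower, and of 11 further genes known from hormone-sensing cells 6 were higher and 3 lower. Against immune cells, the paracrine and hormone-induced list had 7 higher and 1 lower in epithelial cells, and 3 higher and 3 lower in fibroblasts. The shares over all genes were 35.2% higher and 29.8% lower in epithelial cells, and 33.0% and 32.5% in fibroblasts. The prolactin list had 2 higher and 4 lower in epithelial cells, and the steroid receptor family 3 higher and 1 lower in fibroblasts.

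The question of whether the 8 genes mark the same epithelial cells was addressed per barcode. The share of epithelial cells with at least 1 Esr1 UMI was 16.01% (95% exact binomial interval 14.6 to 17.5), 4.58% (3.73 to 5.57), 7.80% (6.76 to 8.94) and 0.708% (0.444 to 1.07). These intervals and all intervals on UMI counts cover counting error only. In immune cells, which gave the background, it was 4.33%, 4.53%, 5.02% and 1.81% at medians of 7531, 12715, 11290 and 14011 UMIs. Macrophages can themselves make the receptor, so this background may be too high. Immune cells with myeloid markers held 1.33 to 4.75 CPM of Esr1, those with T cell markers 0 to 2.82 CPM and endothelial cells 0.344 to 1.11 CPM. Such shares grow with depth, so every cell was also thinned at random to 2000 UMIs, leaving out 139, 142, 84 and 433 shallower epithelial cells. Thinned shares with Esr1 were 2.28%, 0.461%, 0.941% and 0.0374% in epithelial cells, 1.01%, 0.737%, 0.968% and 0.352% in immune cells, and 7.39%, 6.89%, 8.58% and 9.93% in fibroblasts. Thinned epithelial shares were thus above those of immune cells in Cre- replicate 1 and at or below them in the other 3 libraries. Since the class with the lower Esr1 level was endothelial, a share below that of immune cells is not read as absence of Esr1. For Cre+ replicate 2 no order is read, since its unthinned share of epithelial cells and its CPM (6.64 against 4.18) were above those of immune cells.

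Pgr stood clear of the background in more libraries. The thinned share of epithelial cells with Pgr was 4.46%, 0.461%, 1.88% and 0.0374%, against 0.252%, 0%, 0% and 0% of immune cells. Without thinning the epithelial shares were 16.3%, 2.91%, 10.1% and 0.483%. Gata3 was the most widely detected of the 8, in 82.9%, 72.9%, 80.2% and 50.5% of epithelial cells (36.9%, 23.2%, 35.0% and 14.5% after thinning). In Cre+ replicate 4, barcodes with at most 100 UMIs, which are mostly empty droplets, held 1.00 CPM of Esr1, 0.401 of Pgr, 0.401 of Foxa1, 1.00 of Cited1, 0.803 of Tbx3 and 1.61 of Greb1. The values of Esr1, Pgr and Foxa1 rest on 5, 2 and 2 UMIs, and their intervals (0.326 to 2.34, 0.0486 to 1.45 and 0.0486 to 1.45 CPM) hold the epithelial levels, so the 2 could not be told apart at this depth. The same held for Cited1 (0.326 to 2.34 CPM), Tbx3 (0.219 to 2.06 CPM) and Greb1 (0.693 to 3.16 CPM), on 5, 4 and 8 UMIs.

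Most epithelial cells held few of the 8 genes and a minority held many. In Cre- replicate 1, 275, 555, 740, 390, 87, 45, 99, 178 and 11 cells held 0 to 8 of them, so that the distribution had a first peak at 2 genes, a low at 5 and a second peak at 7. Cre+ replicate 2 had the same first peak with a flat tail, at 347, 750, 911, 266, 47, 33, 34, 23 and 12 cells. In Cre- replicate 3 the counts fell off after 2 genes (457, 562, 901, 152, 13, 4, 2, 3 and 0 cells), and in Cre+ replicate 4 the commonest cell, 1369 of 3108, held none.

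**Figure D2:**
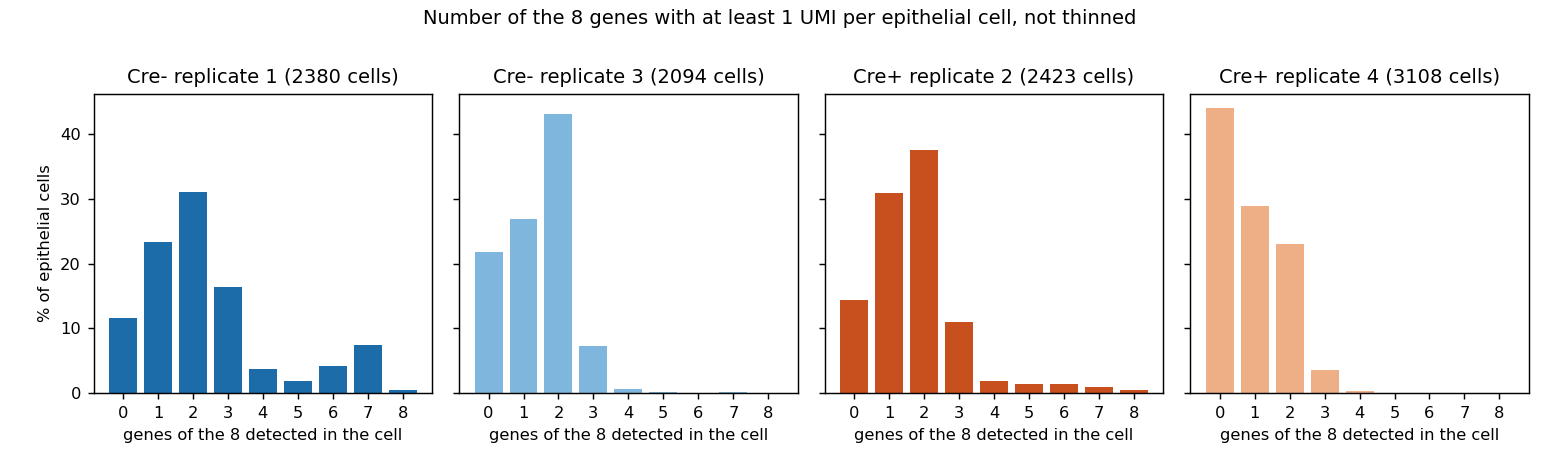
Percent of epithelial cells (vertical axis) by how many of the 8 genes had at least 1 UMI (horizontal axis), 1 panel per library, not thinned. A second peak at 7 genes (178 cells) is seen in Cre- replicate 1, a tail up to 8 genes in Cre+ replicate 2, and no cell with 5 or more genes in Cre+ replicate 4.

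Cells with at least 3 of the 8 genes made up 34.0%, 8.31%, 17.1% and 3.96% of epithelial cells (810, 174, 415 and 123 cells). After thinning the shares were 9.59%, 0.205%, 2.78% and 0 of 2675 cells, which allows up to 0.112%. In fibroblasts the unthinned shares were 10.3%, 3.91%, 10.9% and 4.67% and in immune cells at most 0.116%. A threshold of 3 genes is loose, since Gata3 and Prlr are widely detected. Among cells with exactly 3 genes, Prlr, Gata3 and Tbx3 was the commonest set in Cre- replicate 1 (205 of 390 cells), Esr1, Prlr and Gata3 in Cre- replicate 3 (55 of 152), Pgr, Prlr and Gata3 in Cre+ replicate 2 (91 of 266) and Prlr, Gata3 and Greb1 in Cre+ replicate 4 (60 of 112). So the set that was commonest differed between the 4 libraries.

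A threshold of at least 5 genes, chosen after these counts were seen, left 333, 9, 102 and 0 epithelial cells. That is 14.0% (12.6 to 15.5) in Cre- replicate 1, 0.430% (0.197 to 0.814) in Cre- replicate 3 and 4.21% (3.45 to 5.09) in Cre+ replicate 2, and 0 of 3108 cells in Cre+ replicate 4 allows up to 0.0965%. These cells were deeper than the rest, with medians of 45838, 61454 and 49690 UMIs against 19208, 22547 and 13050. Their level of Prlr was 1700, 621 and 1144 CPM, that of Foxa1 185, 65.2 and 125 CPM and that of Cited1 516, 239 and 400 CPM. These values describe cells that were chosen by the same genes.

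To measure each gene in cells that it did not choose, epithelial cells were picked by the other 7 genes. With at least 3 of the other 7 genes, the mean level over the libraries with at least 20 such cells was 9.81 CPM for Esr1, 21.0 for Pgr, 31.7 for Foxa1 and 90.2 for Cited1. The values that follow are for at least 4 of the other 7, a threshold added after the counts per cell were seen. In Cre- replicate 1, 397 cells picked without Esr1 held 40.2 CPM of Esr1 (37.7 to 42.9), against 1.98 CPM in the other epithelial cells, and held 89.0% of all epithelial Esr1 UMIs. In Cre+ replicate 2, 131 such cells held 29.8 CPM (26.3 to 33.7) against 2.57 CPM, with 67.1% of the UMIs. The picked cells thus stood above the fibroblasts of the same library in Cre- replicate 1 (33.6 CPM) and below them in Cre+ replicate 2 (47.3 CPM), and the remaining epithelial cells were below the immune cells in both. In Cre- replicate 3 the 16 picked cells held 9.71 CPM (5.31 to 16.3) against 1.42 CPM.

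Pgr showed a wider gap. Its level was 117 CPM in cells picked by the other genes and 1.81 CPM in the rest in Cre- replicate 1, and 43.6 against 3.71 CPM in Cre+ replicate 2. The picked cells held 96.4% and 66.1% of the epithelial Pgr UMIs. Foxa1 was at 152 against 2.75 CPM and 102 against 2.56 CPM, and Cited1 at 425 against 2.93 CPM and 281 against 2.40 CPM. Cited1 was the most concentrated of the 8, with 98.3% and 95.9% of its UMIs in the picked cells.

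Prlr, Gata3 and Tbx3 were also counted in the rest of the epithelium. Prlr was at 73.4 and 76.2 CPM there, and 87.9% and 66.8% of its UMIs lay in the picked cells of Cre- replicate 1 and Cre+ replicate 2. Gata3 was at 478 against 202 CPM and 429 against 242 CPM, and 42.5% and 19.2% of its UMIs came from picked cells. Tbx3 was at 52.7 against 8.87 CPM in Cre- replicate 1 and 29.1 against 1.34 CPM in Cre+ replicate 2, with 66.9% and 81.0% of its UMIs in picked cells. The rest of the epithelium of Cre- replicate 1 thus held several times more Tbx3 than that of the other libraries (Cre- replicate 3 held 0.256 CPM there and Cre+ replicate 4 held 1.04 CPM), with a UMI in 17.2% of those cells.

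Greb1 had narrow gaps. It was at 2.27 CPM (1.72 to 2.95) against 0.810 (0.595 to 1.08) in Cre- replicate 1 and at 3.52 (2.44 to 4.92) against 1.44 (1.12 to 1.81) in Cre+ replicate 2. Even in picked cells it stayed below its level in the fibroblasts of the same library. In Cre+ replicate 4 at most 10 cells held 4 or more of the other 7 genes, whichever gene was left out. The gene left out has 0 UMIs in them by construction, since no cell of that library held 5 or more of the 8 genes. With 3 or more of the other 7 genes, picked cells of that library held 0.356 CPM of Cited1 against 1.05 CPM in the rest. Tbx3 was at 0.246 against 1.13 CPM and Pgr at 0.112 against 0.257 CPM. These levels of picked cells rest on 3, 2 and 1 UMIs and their intervals overlap those of the rest, so no order is read. For Esr1, 109 picked cells held 0.959 CPM (0.414 to 1.89, 8 UMIs) against 0.255 CPM (0.146 to 0.414).

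**Figure D3:**
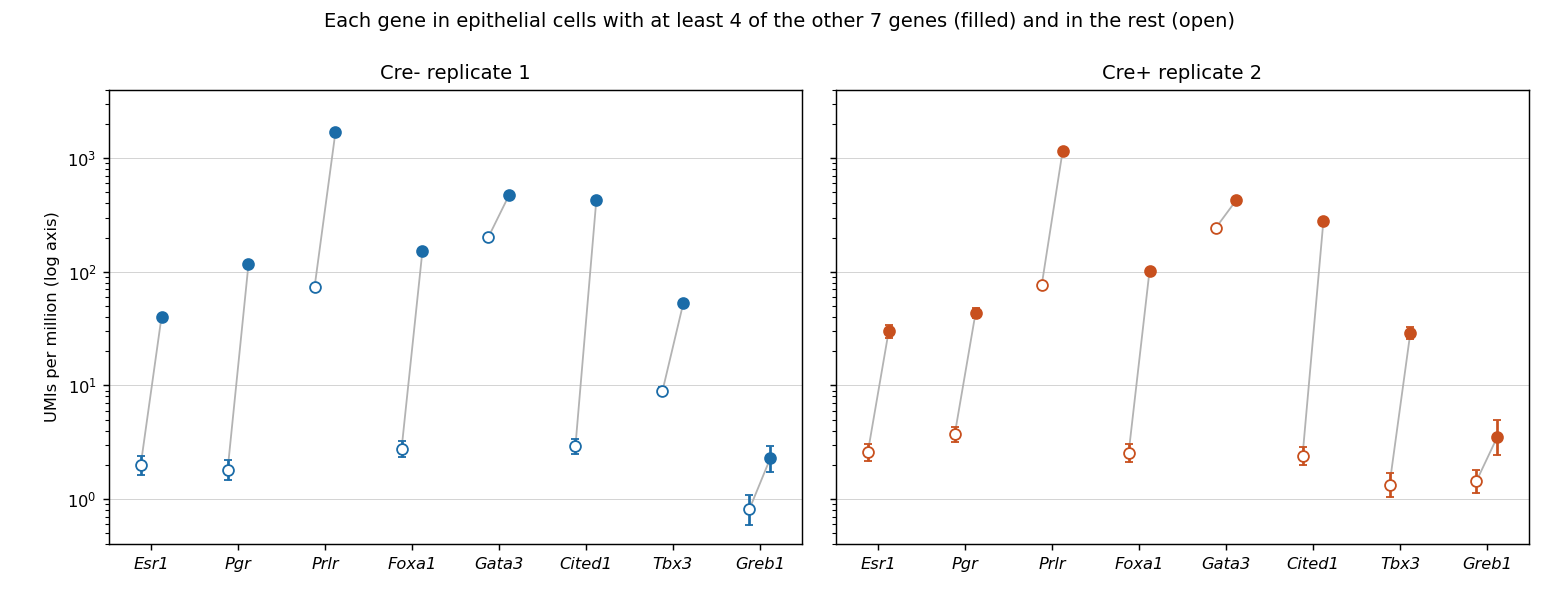
Level of each gene in UMIs per 1000000 (log axis) in epithelial cells with at least 4 of the other 7 genes (filled) and in the remaining epithelial cells (open), for Cre- replicate 1 and Cre+ replicate 2, with 95% exact Poisson intervals of counting error. The gap is widest for Cited1 (425 against 2.93 CPM in Cre- replicate 1) and narrow for Gata3 and Greb1.

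Cells were also split by the 2 steroid receptors. Both Esr1 and Pgr were detected in 272, 8, 78 and 1 epithelial cells. In Cre- replicate 1 the 272 cells held 197 CPM of Foxa1, with a UMI in 97.1% of cells, 1802 CPM of Prlr and 553 CPM of Cited1. The 116 cells with Pgr and no Esr1 UMI held 81.2 CPM of Foxa1, 846 CPM of Prlr and 195 CPM of Cited1, and the 109 cells with Esr1 and no Pgr held 5.66, 122 and 11.8 CPM. Cells with neither held 2.12 CPM of Foxa1, 62.8 CPM of Prlr and 2.49 CPM of Cited1. Median depths were 48036.5 UMIs with both, 22691 with Pgr alone, 40769 with Esr1 alone and 18200 with neither. The split was not thinned, so a cell with Pgr alone may hold Esr1 that was not captured. In that library cells with Pgr alone lay between the double-positive cells and cells with Esr1 alone, which in turn were above cells with neither. Cre- replicate 3 did not have this order, since Foxa1 was at 0.352 CPM in 53 cells with Pgr alone, 1.74 CPM in 88 cells with Esr1 alone and 0.674 CPM in cells with neither.

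Cre+ replicate 2 showed the same high values in its 78 double-positive cells, with 115 CPM of Foxa1, 1073 CPM of Prlr and 381 CPM of Cited1. Single-positive cells were nearer to each other there, with 15.0 CPM of Foxa1 in 111 cells with Esr1 alone and 19.0 CPM in 166 cells with Pgr alone, against 3.25 CPM in cells with neither. The 1 double-positive barcode of Cre+ replicate 4 held 347293 UMIs and 0 UMIs of Foxa1 and Cited1.

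Depth alone can place several genes in the same cell, so pairs were counted after thinning to 2000 UMIs and set beside the number expected if the genes were independent. Mantel-Haenszel odds ratios, unlike these counts, come from the cells before thinning. They are pooled over 10 strata of depth and given with no test. In Cre- replicate 1, 27 of 28 pairs were seen together more often than expected in 2241 cells. Greb1 was in 3 of these cells, so each of its pairs rests on at most 2 cells. Pairs that share a gene are not separate evidence. Esr1 and Pgr met in 17 cells against 2.28 expected (odds ratio 33.7), Pgr and Foxa1 in 32 against 6.20 (87.4), Pgr and Cited1 in 35 against 7.10 (43.5) and Foxa1 and Cited1 in 55 against 9.86 (34.3). Prlr and Gata3, both broad, met in 274 cells against 196.

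Cre+ replicate 2 had 23 of 28 pairs above expectation in 2339 cells, led by Foxa1 and Cited1 with 19 cells against 0.876 (odds ratio 48.6). Esr1 and Foxa1 met in 7 cells against 0.470, and Esr1 and Pgr in 2 against 0.414. In Cre- replicate 3 and Cre+ replicate 4 most pairs were never seen together after thinning (12 and 6 of 28 were seen), and Prlr and Gata3, the pair with most cells, met in 57 against 52.3 and 27 against 19.2. Before thinning, the odds ratio was above 1 for 19 of 28 pairs in Cre- replicate 3 (median 1.89) and for 12 in Cre+ replicate 4 (median 0.936). In fibroblasts, which held Esr1, Tbx3 and Greb1, the strata-pooled odds ratios of the 4 libraries were 0.916, 0.986, 1.39 and 0.542 for Esr1 with Tbx3 and 0.714, 0.619, 0.986 and 1.81 for Esr1 with Greb1.

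**Figure D4:**
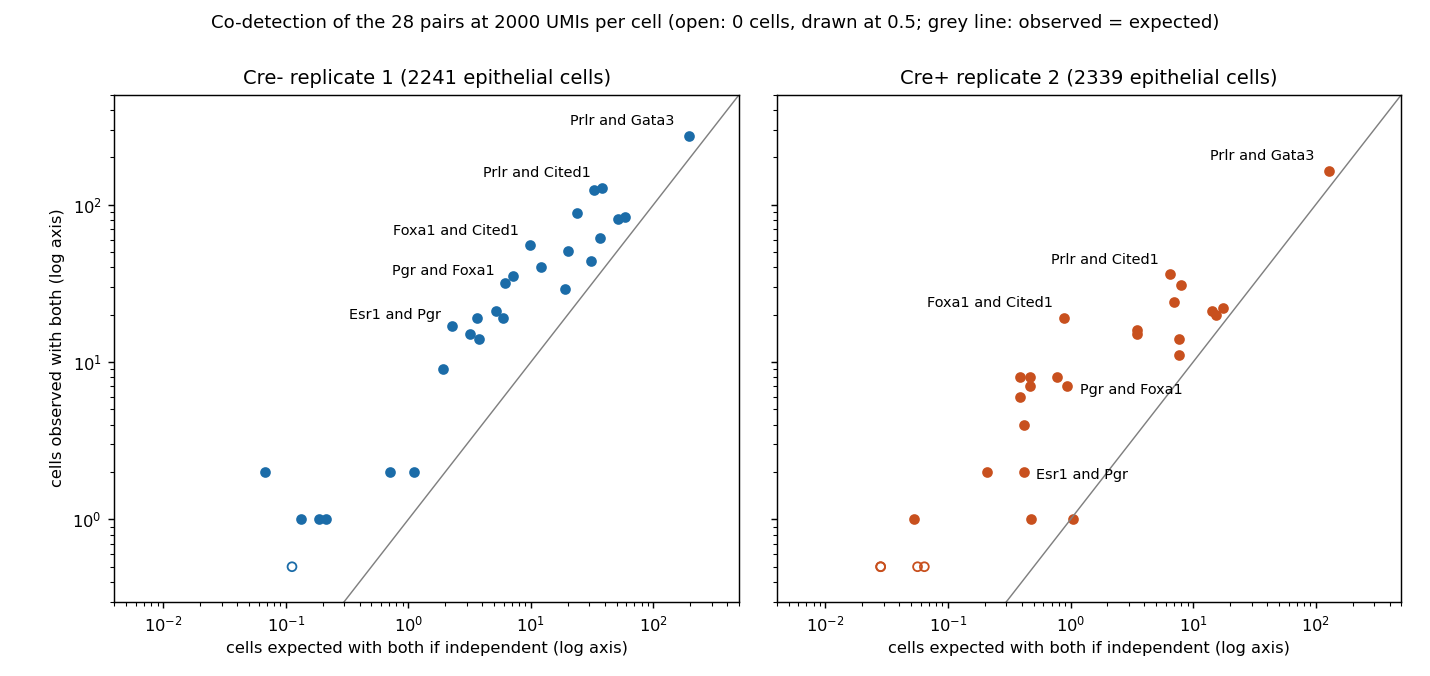
Cells observed with both genes of a pair (vertical log axis) against cells expected with both if the genes were independent (horizontal log axis), 1 point per pair, in epithelial cells thinned to 2000 UMIs. The grey line marks equality, 27 of 28 pairs exceeded the expected number in Cre- replicate 1 and 23 of 28 in Cre+ replicate 2, and pairs of 0 cells, drawn as open symbols at 0.5, are not among them. Greb1 was in 3 thinned cells of each of these libraries, so its pairs rest on few cells.

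The genes that are none of the 8 were then compared between co-detecting and other epithelial cells of the same library. At the threshold of 3 genes, 0.304% of 15775 genes were higher and 0.273% lower (edgeR, library block). Calca, which encodes calcitonin and its related peptide, was the called gene of the pathway lists (6.67, SE 0.33, adjusted p = 0.00336), and the basal keratin Krt14 was lower (-1.06, adjusted p = 0.0201). The 91 genes called here were 0 without the library block, at most 85 with any 1 library left out (7 without Cre+ replicate 2, 16 without Cre- replicate 3 and 30 without Cre- replicate 1), and 1162 with upper limits of 5000 genes and 30000 UMIs per cell. At the threshold of 5 genes, chosen after the counts were seen, only Cre- replicate 1 and Cre+ replicate 2 could be fitted. There 5.67% of 15363 genes were higher and 3.42% lower. With the library block that fit left few residual degrees of freedom, and it was not simulated. Of 10 tested paracrine and hormone-induced genes, 5 were higher, Areg (6.27), Calca (8.49), Wnt4 (5.93), Stc2 (6.26) and Myb (4.19), and Igfbp5 was lower (-1.34), with a list median of 2.81 against -0.02 over all genes. Of 7 prolactin pathway genes, Cish (1.47), Jak2 (1.71) and Socs3 (1.37) were higher and Elf5 lower (-1.13). Milk genes went the other way, with 3 of 5 lower, Csn3 (-1.68), Lalba (-2.39) and Wap (-2.11). The summed milk level was 3262 CPM in the co-detecting cells against 11692 CPM in the rest in Cre- replicate 1, and 4437 against 13781 CPM in Cre+ replicate 2.

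Genes of other lists were called in the same comparison. Of the 11 epithelial markers (median 0.09) 4 were higher, the luminal keratins Krt7 (2.38), Krt8 (1.42), Krt18 (1.25) and Krt19 (5.08), and so were 4 of 11 further genes known from hormone-sensing cells, Batf (3.58), Fxyd2 (6.26), Cldn4 (0.83) and Ly6a (4.87). Of the keratinocyte genes, Krt6a (6.40) and Sprr1a (3.62) were higher. Of the 8 receptor coregulators, 0 were called. Of the 8 fibroblast markers, Dcn (4.82) was called, and their sum was 122 against 31.3 CPM in Cre- replicate 1 and 266 against 79.4 CPM in Cre+ replicate 2. The sum of the 8 immune markers was 158 against 206 CPM and 99.4 against 140 CPM, while of the 5 T cell genes (median 1.20) Trbc2 was higher (2.003). The endothelial marker Egfl7 (2.52) and the mural marker Notch3 (1.20) were also higher. Doublets were not removed. The part of depth and of these markers in the differences was not tested.

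The genes most like the 8 in these cells were named by the smallest ratio of CPM over libraries between co-detecting and other epithelial cells. At the threshold of 3 genes, over 4 libraries and 10814 genes, the smallest ratios ran from 1.57 to 1.91 for the first 10. These 10 included Brca1 (1.91), Mfsd2a, a lipid transporter (1.86), Fgg (1.77), Myb (1.65) and the replication genes Mcm3 (1.64) and Mcm5 (1.60). Of these, Mfsd2a, Fgg and Myb were not called by edgeR at this threshold (adjusted p = 0.0726, 0.0953 and 0.0983). Median depths were 48085, 63973, 41012 and 66886 UMIs in co-detecting cells and 13974.5, 20730.5, 11228.5 and 11508 in the rest. The part of depth in the ratios was not tested. Over the libraries the ratios of Fgg were 11.8, 2.62, 13.6 and 1.77, and those of Myb 9.89, 2.80, 8.80 and 1.65. At the threshold of 5 genes the ratios covered 11141 genes and 2 libraries, Cre- replicate 1 and Cre+ replicate 2. The sets of libraries differ, so the ratios of the 2 thresholds are not compared. In the edgeR fit at 3 genes Fgb (8.08), Ido1 (7.65), R3hdml (7.38) and Pcp4 (6.41) were called higher. Fam25c and Ffar4 were not called in that fit (edgeR adjusted p = 0.197 and 0.0941). The levels that follow compare cells with at least 5 of the 8 genes with the rest, and they gave the ranking. Fgb, a fibrinogen chain, was at 487 against 1.32 CPM in Cre- replicate 1 and 200 against 0.250 CPM in Cre+ replicate 2. Pcp4 was at 165 against 0.794 and 307 against 1.73 CPM, R3hdml at 173 against 1.21 and 119 against 0.461 CPM, Fam25c at 382 against 3.67 and 112 against 0.902 CPM, Ido1 at 54.7 against 0.556 and 83.4 against 0.134 CPM, and the fatty acid receptor gene Ffar4 at 231 against 2.45 and 61.9 against 0.403 CPM.

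Cycling cells were those with UMIs of at least 2 of Mki67, Top2a, Cdk1, Ccnb1, Ccna2 and Cenpf after thinning. They were 6.99%, 11.5%, 7.28% and 10.6% of the cells with at least 3 of the 8 genes. Among the other epithelial cells they were 2.71%, 8.44%, 2.91% and 9.72%. The share was higher in co-detecting cells in 4 of 4 libraries, by 3.14 ± 1.64 percentage points (SD, n = 4). The exact sign-flip permutation test gave p = 0.125, the smallest that 4 libraries allow. Co-detecting cells were chosen before thinning and were deeper than the rest.

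The genotype comparison asked whether the 8 genes differed between Cre+ and Cre- tumors. In epithelial cells 7 of the 8 had a lower mean in Cre+ and Greb1 a higher one, and none of these differences passed the test adjusted over all genes. Mean Esr1 of the Cre- mice was 7.25 ± 8.00 CPM and that of the Cre+ mice 3.49 ± 4.45 CPM (SD, n = 2 each), and mean Pgr 18.2 ± 24.1 and 4.82 ± 6.47 CPM. For Esr1, Pgr, Prlr, Foxa1, Gata3 and Cited1, Cre- replicate 1 was highest, Cre+ replicate 2 followed, then Cre- replicate 3 and then Cre+ replicate 4, so 1 mouse of each genotype was high and 1 low. The log2 fold changes were -1.08 for Esr1 (SE 1.56), -1.95 for Pgr (SE 2.03), -1.15 for Prlr (SE 1.10), -1.50 for Foxa1 (SE 2.16) and -1.38 for Cited1 (SE 2.12), with an adjusted p of 1.00 each (edgeR). Gata3 was nearest to no difference at -0.12 (SE 0.48). Greb1 was at 1.25 and 0.555 CPM in Cre- and 1.78 and 1.79 CPM in Cre+ (log2 fold change 1.04, SE 0.59, edgeR adjusted p = 1.00). Its change was 0.09 under upper limits on genes and UMIs, 0.57 without Cre- replicate 3 and 1.72 without Cre- replicate 1. The 1.79 CPM of Cre+ replicate 4 lay within the interval of its near-empty barcodes (0.693 to 3.16 CPM). Over all 16266 genes tested, 0% were called, with 406 at an unadjusted p under 0.05 and 72 called by DESeq2.

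In fibroblasts, Esr1 was at 33.6 and 30.2 CPM in Cre- and at 47.3 and 39.5 CPM in Cre+. The log2 fold change was 0.50 (SE 0.15, adjusted p = 0.834, edgeR), opposite in sign to the epithelial one and not past the test. Fibroblasts with a UMI of Pi16 or Dpp4, in which Esr1 was higher, were 168 of 271 and 321 of 486 in Cre- and 488 of 570 and 108 of 150 in Cre+. Among them Esr1 was at 50.3 and 33.5 CPM in Cre- and 48.0 and 45.0 CPM in Cre+, and among the others at 8.48 and 12.9 against 37.5 and 22.1 CPM. The part of this split in the difference was not tested. Greb1 stood at 0.68 (SE 0.59), and Pgr (-1.08, SE 0.76), Prlr (-0.72, SE 0.86), Gata3 (-0.82, SE 0.57) and Tbx3 (-0.59, SE 0.29) were negative, none past the test. Of 13091 genes tested, 0% were called, with 679 at an unadjusted p under 0.05 and 73 called by DESeq2. The interaction of genotype with class, which tests whether the genotype difference itself differs between epithelial cells and fibroblasts, called 0 of the 8 genes, against 0.00595% of 16798 genes (487 at an unadjusted p under 0.05, and 22 genes called by DESeq2). Each of the pathway lists also had 0 called genes in the 3 genotype fits.

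The shares of cells gave the same picture. The share of epithelial cells with at least 3 of the 8 genes was lower in Cre+ by 10.6 percentage points on average (exact permutation p = 0.667), and the thinned shares with Esr1 and with Pgr differed by -0.879 and -1.50 percentage points (exact permutation p = 0.667 each, two-sided). With 2 mice per genotype, the smallest p of this test is 0.333. Without Cre- replicate 1 all 3 differences turned positive, to 2.23, 0.0279 and 0.498 percentage points. Cre+ replicate 4 was processed with another Cell Ranger version and deposited with all its barcodes, and for that library the processing and the genotype cannot be told apart.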

How the data were processed

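Single-cell RNA was measured with the 10x Genomics 3' v3 kit in 4 tumor libraries, from sorted cells whose gate is not given in the sources used here. The authors deposited UMI counts for each gene in each barcode, without normalization, made with Cell Ranger 6.1.2 for replicates 1 to 3 (called cells) and Cell Ranger 4 for replicate 4 (all barcodes). The submitters' notes list the human build hg38, whereas the gene identifiers are of the mouse. Depth was 112729231 to 157662955 UMIs per library.

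Here, UMIs were counted per barcode within the limits stated, and summed per library and class. CPM are UMIs of a gene per 1000000 UMIs of those cells. Sums were tested with the quasi-likelihood test of edgeR 4.0.16 (R 4.3.3) with TMM and filterByExpr, adjusted over all genes tested at 0.05. Each SE of an edgeR log2 fold change is the size of the change divided by the square root of the F statistic. It is thus derived from the test and not fitted separately. The library was a block between classes, since sums of 1 library share a source. DESeq2 1.42.0 was an alternative. For shares the test was an exact permutation of the libraries (two-sided), and for cycling an exact sign flip within libraries. Python 3.11.15, numpy 2.4.6, pandas 2.3.3, scipy 1.17.1 and matplotlib 3.10.9 were used, with random seed 1 for thinning. The fits were tested on simulated data, where the genotype fit of epithelial cells found 1.05% of 95 genes changed by a log2 fold change of 2, the fit of epithelial cells against fibroblasts 75.3% of 97 and that of co-detecting cells 89.9% of 99, with 5, 2 and 17 false calls among all genes simulated. Counts were drawn around 1 mean per gene with no library effect. Recovery in the fits with a library block may thus differ from that in the data.

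The 8 genes, the pathway and marker lists and the tests were chosen with earlier results of these data known. The genes named are the 8, Frmd8, called genes of the lists and the 10 genes with the largest smallest-over-libraries ratio of CPM between co-detecting and other epithelial cells, among genes with at least 20 UMIs in the former. Alternatives changed the depth and mitochondrial limits, the class gate, the normalization, the filter, the test, the block and the thresholds of co-detection. Doublets were not removed. The 2 mice of a genotype are the replicates.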

Additional observations from a re-analysis of the deposited data

Results flagged for a closer look

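The genotype difference of 1 gene, which is none of the 8, differed between epithelial cells and fibroblasts by the test of the interaction (nonagouti, a coat color gene, edgeR adjusted p = 0.0354). Nonagouti was at 0.121 and 0.0730 CPM in Cre- and 519 and 110 CPM in Cre+ epithelial cells, and at 33.6 and 11.4 CPM in Cre- and 52.1 and 6.49 CPM in Cre+ fibroblasts. The paper gives a yellow coat for Cre+ and a black coat for Cre- mice. Coat color thus goes with Frmd8 loss, and their parts in the nonagouti level cannot be told apart. The call was lost without Cre- replicate 3, without Cre+ replicate 2 or without Cre+ replicate 4.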

How the results depend on the processing

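No paired analysis was possible because the genotypes share no replicate number, and between classes the library block was part of the fit. Counts of called genes changed as follows. The genotype fit of epithelial cells (0 genes) called 72 with DESeq2 and 0 to 6 with 1 library left out. That of fibroblasts (0) called 293 with no filter on low counts, 73 with DESeq2 and 0 to 9 with 1 library left out. The interaction (1) called 2 with upper limits on genes and UMIs, 0 with a class share of 60%, 5 with no filter, 22 with DESeq2 and 0 to 2 with 1 library left out. The comparison of cells with at least 3 of the 8 genes (91) called 1162 with upper limits, 999 with at least 2 genes, 1137 with at least 4, 1396 with at least 5 (added after the data were seen), 320 with no filter, 771 with DESeq2, 0 without the library block (355 at an unadjusted p under 0.05) and 7 to 85 with 1 library left out.

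Levels in cells with at least 3 of the other 7 genes were, with upper limits on genes and UMIs, 39.5 CPM for Esr1, 107 for Pgr, 2105 for Prlr, 105 for Foxa1, 623 for Gata3, 219 for Cited1, 53.2 for Tbx3 and 5.91 for Greb1, and with at least 4 of the other 7 they were 35.03, 80.2, 1419, 94.3, 453, 353, 31.5 and 2.90 in that order. These means rest on 2 or 3 libraries.

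With 1 library left out, the epithelial genotype changes ran, on the log2 scale, from -4.28 to 1.08 for Esr1, -6.11 to 1.94 for Pgr, -2.63 to 0.66 for Prlr, -6.57 to 2.58 for Foxa1, -0.75 to 0.35 for Gata3, -5.91 to 2.88 for Cited1 and -3.19 to 2.46 for Tbx3, and those of fibroblasts from -1.92 to 0.047 for Pgr and -1.54 to 1.12 for Prlr, each turning without Cre- replicate 1. Gata3 also turned without Cre+ replicate 4. The shares ran from -23.5 to 2.23 percentage points for at least 3 genes, -1.79 to 0.0279 for Esr1 and -3.50 to 0.498 for Pgr. Esr1 in epithelial against immune cells was 0.43 without the block and -0.78 to 0.37 with 1 library left out. The cause was not tested. Of all other values that answer a comparison, 239 kept their size or call, as did 495 values of single genes. For single genes, 3 calls were gained and 4 lost, which are given beside their results except that of Gata3 in fibroblasts against immune cells, which passed with a class share of 90% (-0.84, edgeR adjusted p = 0.0190).

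With 2 mice per genotype, and a simulated recovery of 1.05% at a log2 fold change of 2, differences of that size between genotypes were mostly not detectable. Epithelial levels of Esr1, Pgr, Foxa1, Cited1, Tbx3 and Greb1 in Cre+ replicate 4 could not be told from those of its near-empty barcodes.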

Other observations

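Epithelial cells with at least 2 basal markers (Krt5, Krt14, Acta2, Myh11, Mylk, Oxtr, Trp63) held less Esr1, Pgr, Foxa1 and Cited1 than the others in 3 of 4 libraries. In Cre- replicate 1, Esr1 was at 3.78 CPM in basal-marked cells against 14.1 CPM, Pgr at 13.1 against 38.0 CPM, Foxa1 at 13.0 against 50.3 CPM and Cited1 at 58.0 against 133 CPM. In Cre+ replicate 2, Esr1 was at 5.15 against 7.04 CPM, Pgr at 6.26 against 10.2 CPM, Foxa1 at 10.4 against 18.7 CPM and Cited1 at 4.99 against 61.3 CPM. In Cre- replicate 3 Esr1 was at 1.21 against 1.74 CPM, Pgr at 1.01 against 1.29 CPM, Foxa1 at 0.606 against 1.70 CPM and Cited1 at 0.354 against 4.50 CPM. In Cre+ replicate 4 Esr1 was at 0.393 against 0.328 CPM, Pgr at 0.787 against 0.148 CPM, Foxa1 at 0.295 against 0.213 CPM and Cited1 at 1.57 against 0.869 CPM. These values all lay within the intervals of its near-empty barcodes, so no order is read for that library. Gata3 was lower in basal-marked cells of Cre- replicate 1 (219 against 274 CPM) and higher in those of the other 3 libraries. No test was made.

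Greb1 in fibroblasts was at 5.37, 1.93, 9.59 and 10.1 CPM with a UMI of Pi16 or Dpp4 and at 17.3, 7.86, 21.1 and 6.49 CPM without, so the first 3 libraries were higher without these transcripts and Cre+ replicate 4 was not. This is the opposite order to that of Esr1 in the same cells of the first 3 libraries. Greb1 was detected in 12.5%, 3.70%, 17.4% and 12.7% of fibroblasts and in 2.69%, 1.48%, 3.30% and 3.47% of epithelial cells, not thinned.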
